A study of Mus musculus with 2 samples.

Results

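Messenger RNA of 38 cell cycle and DNA replication genes was examined in adult mouse liver. The genes were taken by name for their known roles, and all 38 were found by gene ID among the 43346 mouse genes of the tables. They divide into 8 genes of G1 control, 6 of the G1/S switch, 11 of S phase and 13 of G2 and mitosis. The data come from 2 libraries, biological replicates 1 and 2 of a single group: liver tissue of C57BL/6J mice, 8 weeks old, males and females pooled. The labels call the mice littermates and give both libraries the same donor identifier. They name no genotype other than the strain and no treatment, so there is no contrast between conditions, and the spread between the libraries may be in part technical. RNA longer than 200 nt was depleted of ribosomal RNA, selected for poly-A tails and sequenced as stranded pairs of 76 nt reads.

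The libraries held 59676342 and 60600117 estimated read pairs on genes (called reads below), of which 21405 and 23938 lay on the 38 genes. At this depth, 1 read on a transcript of 1000 bases is worth about 0.02 TPM (0.0205 and 0.0204), where TPM is a level per unit of transcript length, scaled to the same total in each library. The tissue label was checked against markers. The 6 hepatocyte markers summed to 50760 and 52706 TPM, led by Alb (albumin) and Ttr (transthyretin). Markers of other liver cells were present at far lower levels, with summed TPM of 90.9 and 150 for Kupffer cells, 81.0 and 107 for sinusoidal endothelium, 113 and 127 for stellate cells, 21.2 and 18.7 for bile duct, and 4.19 and 9.57 for B and T lymphocytes. Those of erythroid precursors summed to 52.1 and 47.8 TPM, and those of neutrophils and myeloid progenitors to 1.95 and 2.61 TPM. In whole tissue, a gene expressed in few cells and a gene expressed weakly in many cannot be told apart.

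A cell that enters division passes a fixed order of gene programmes. D cyclins with Cdk4 or Cdk6 phosphorylate the retinoblastoma protein Rb1 in G1, which frees E2F factors to switch on cyclin E, nucleotide synthesis and the MCM helicase that opens replication origins. The B-Myb and FOXM1 programme then drives mitotic kinases, cyclins and checkpoint genes. In resting cells, complexes that hold E2F4 and the MuvB core keep many of these promoters shut. Adult hepatocytes rest outside the cycle, can return to it after loss of liver mass, and are often polyploid.

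Promoter sequences were examined first, because the S phase and mitotic genes are textbook targets of different promoter elements. RefSeq promoter windows of 300 bases, from 250 before to 50 after a start on GRCm38.p6, matched 30 of the 38 genes and gave 33 windows. The unmatched genes were Ccnd1, Ccnd2, Rb1, Ccne2, Mcm4, Foxm1, Ccna2 and Aurkb. Both strands were searched for E2F letters in 4 forms, namely TTCCCGC, its variant TTCGCGC, the form TTGCCGC and the related form TTGGCGC. They were also searched for the cell cycle homology region, CHR (TTTGAA or TTCGAA), which MuvB complexes bind, and for CCAAT, the letters bound by NF-Y. E2F letters can overlap CCAAT letters, and each match was then counted.

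E2F letters stood in 7 of 11 S phase windows and 3 of 5 G1/S windows, against 1 of 7 for G1 control, 3 of 10 for G2 and mitosis and 9.57% of all 32851 promoter windows. Mcm7, Ccnd3 and Cdkn2c each have 2 windows, and both windows of Mcm7 hold E2F letters. In S phase, Tk1, Pcna, Tyms and Mcm2 had no E2F letters, and in the G1/S switch E2f1 and Ccne1 had none. CHR letters had another distribution. They stood in 8 of 10 windows of G2 and mitosis, 2 of 11 of S phase, 1 of 5 of the G1/S switch and 0 of 7 of G1 control, against 19.2% of all windows. CCAAT was present in 9 of 10 mitotic and 9 of 11 S phase windows, against 37.4% of all. CHR and CCAAT letters occurred together in 8 of 10 mitotic windows and in 7.52% of all windows. At least 2 CCAAT matches stood in 8 of the 10, against 11.7% of all. A match is a description of the letters, not evidence of a bound site. Base composition also differed, with a median GC content of 57.8% in mitotic, 57.3% in S phase, 66.7% in G1 control and 75.3% in G1/S windows against 52.7% in all windows.

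The windows with the most matches among S phase and mitotic genes were those of Mcm7 and Top2a. Mcm7 had 7 matches, as did Mcm6, and Mcm7 has the higher level. Mcm6, with the most E2F matches, and Cdk1, with all 3 elements, were added after values were seen. The 250 bases before each start are shown 5′ to 3′ on the strand of the gene, with matches in capitals. All 4 genes lie on the minus strand: Mcm7 at chr5:138171884-138172133, Top2a at chr11:99024190-99024439, Mcm6 at chr1:128359706-128359955 and Cdk1 at chr10:69352913-69353162.
Mcm7: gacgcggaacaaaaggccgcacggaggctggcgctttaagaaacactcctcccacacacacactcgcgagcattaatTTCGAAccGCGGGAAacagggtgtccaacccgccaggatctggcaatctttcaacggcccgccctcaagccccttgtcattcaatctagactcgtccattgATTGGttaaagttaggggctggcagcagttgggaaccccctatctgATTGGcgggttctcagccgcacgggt
Top2a: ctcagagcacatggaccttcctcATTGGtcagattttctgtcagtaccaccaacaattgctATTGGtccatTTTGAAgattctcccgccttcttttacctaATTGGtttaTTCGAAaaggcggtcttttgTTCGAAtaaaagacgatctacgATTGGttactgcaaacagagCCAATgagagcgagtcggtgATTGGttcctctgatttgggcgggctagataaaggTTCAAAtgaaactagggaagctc
Mcm6: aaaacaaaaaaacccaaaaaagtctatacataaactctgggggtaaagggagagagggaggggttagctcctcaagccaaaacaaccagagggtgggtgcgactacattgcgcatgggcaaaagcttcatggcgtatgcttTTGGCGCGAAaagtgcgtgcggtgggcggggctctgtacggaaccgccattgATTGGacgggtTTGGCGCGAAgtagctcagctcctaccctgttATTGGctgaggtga
Cdk1: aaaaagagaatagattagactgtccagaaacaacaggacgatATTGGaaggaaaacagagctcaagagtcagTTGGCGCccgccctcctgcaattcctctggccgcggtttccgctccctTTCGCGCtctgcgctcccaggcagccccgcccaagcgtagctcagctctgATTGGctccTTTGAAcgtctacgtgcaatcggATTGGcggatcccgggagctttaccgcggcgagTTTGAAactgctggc
The Mcm7 stretch shows 1 E2F, 1 CHR and 2 CCAAT matches, the CHR letters lying just before the E2F letters. Its other 3 matches lie after the start. Top2a shows 4 CHR and 6 CCAAT matches and no E2F letters. Mcm6 shows 4 E2F matches, which form 2 runs where letters on the opposite strands overlap, and 2 CCAAT matches. Cdk1 shows a CCAAT match, then 2 E2F matches, and nearer the start 2 pairs of CCAAT followed by CHR letters.

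**Figure D1:**
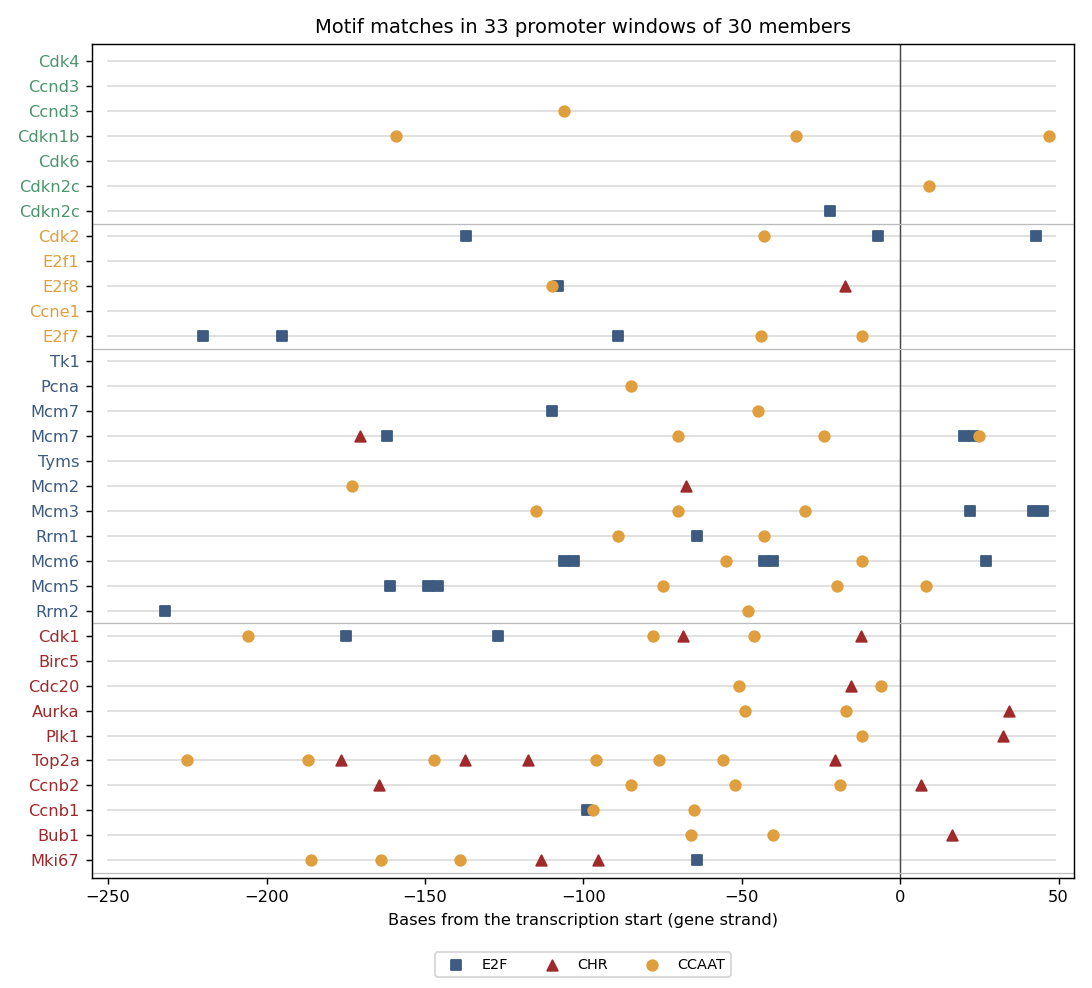
Matches to E2F letters (squares), CHR letters (triangles) and CCAAT (circles) in 33 promoter windows, by distance in bases from the transcription start. Gene names are coloured by role, from G1 control at the top to G2 and mitosis at the bottom. CHR letters stand in 8 of the 10 windows of the lowest block and in none of the 7 in the highest.

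Levels followed the order of the cycle only in part. G1 control genes were the most abundant role, with a median of 4.99 ± 0.286 TPM (mean ± SD of the library medians, n = 2), and S phase genes followed at 2.29 ± 0.453 TPM. The G1/S switch had a median of 0.963 ± 0.322 TPM and G2 and mitosis of 0.320 ± 0.0566 TPM. The whole set summed to 247 and 251 TPM, 0.0247% and 0.0251% of all TPM. G1 control genes held 126 and 146 TPM of this and S phase genes 105 and 86.8 TPM, while all 13 mitotic genes together held 5.97 and 6.18 TPM, from 434 and 417 reads. Roles were not tested against each other, since genes are not replicates.

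A level of 1 TPM or more in both libraries was found for 21 of 38 genes (55.3%), against 47.4% of the 21474 protein-coding genes. By role this was 7 of 8 in G1 control, 3 of 6 in the G1/S switch, 10 of 11 in S phase and 1 of 13 in G2 and mitosis. Below 0.1 TPM in both libraries were Mki67, Bub1 and Ccne2, 3 of 38 genes, against 36.1% of protein-coding genes. None of the 38 had 0 reads in both libraries.

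The deposited level of a gene depends on which of its transcripts the reads were assigned to, since short transcripts give a higher TPM for the same reads. Levels were therefore also computed from the reads of the gene and the length of its transcript with the longest complete coding sequence, called the fixed-length level. On that scale the role medians were 3.44 ± 0.0141 TPM for G1 control, 0.917 ± 0.395 for the G1/S switch, 1.86 ± 0.156 for S phase and 0.283 ± 0.0571 for G2 and mitosis. The order of the 4 roles was the same.

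**Figure D2:**
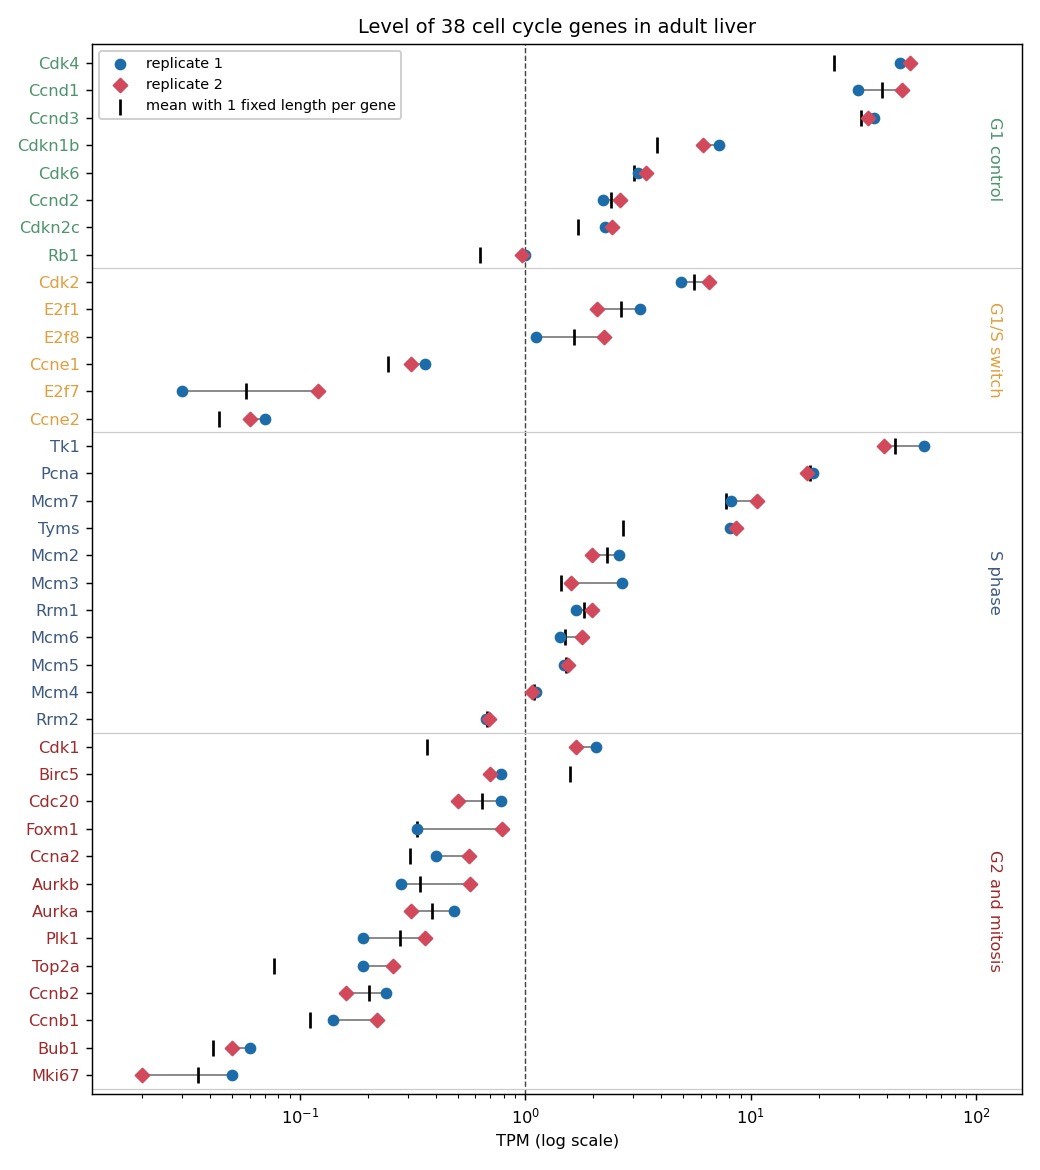
Level of each of the 38 genes in TPM on a log axis, in replicate 1 (circles) and replicate 2 (diamonds), grouped by role and ordered by mean. Black ticks give the mean fixed-length level, and the dashed line marks 1 TPM. In G2 and mitosis, Cdk1 alone lies above 1 TPM in both libraries, and its fixed-length tick lies below that line.

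In G1 control, the kinase Cdk4 and the cyclins Ccnd1 and Ccnd3 stood well above the rest. Cdk4, which lies at chromosome 10, 127063534 to 127067920, had 45.8 TPM in replicate 1 and 50.7 in replicate 2. Its fixed-length level was less than that, 21.7 and 25.2. Cyclin D1, Ccnd1, at chromosome 7, 144929931 to 144939925, had 29.8 TPM in replicate 1 and 46.8 in replicate 2. Cyclin D3, Ccnd3, had 35.0 and 33.2 TPM. The order of these 2 cyclins therefore differed between the libraries. Cyclin D2, Ccnd2, was far lower at 2.20 and 2.62 TPM.

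Among the D cyclins, Ccnd1 held 44.5% of the summed level in replicate 1 and 56.7% in replicate 2, Ccnd3 52.2% and 40.1%, and Ccnd2 3.28% and 3.17%. Since shares sum to the whole and Ccnd2 is minor, the shares of Ccnd1 and Ccnd3 are bound to mirror each other. The TPM of Ccnd3 was nearly the same in both libraries, and that of Ccnd1 was not. Of the 2 kinases that D cyclins activate, Cdk4 stood 14.5 and 14.7 times above Cdk6, which had 3.16 and 3.44 TPM. With fixed lengths the ratio was 7.81 and 7.69, so most reads pointed to Cdk4 on both scales, but the size of the gap depends on transcript lengths.

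The brakes on these kinases were also present. Cdkn1b, which encodes the inhibitor p27, had 7.23 TPM in replicate 1 and 6.14 in replicate 2, and Cdkn2c, which encodes the inhibitor p18 of Cdk4 and Cdk6, had 2.26 and 2.41. Rb1, the retinoblastoma protein at which this arm converges, was the lowest of the role, at 1.00 and 0.97 TPM from 134 and 141 reads. It was just under the limit of 1 TPM in replicate 2.

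The G1/S switch was split. Cdk2, the partner of cyclin E and cyclin A, led with 4.89 TPM in replicate 1 and 6.54 in replicate 2. Its cyclin E partners were scarce. Ccne1 had 0.36 and 0.31 TPM from 16 and 28 reads, and Ccne2 had 0.07 and 0.06 TPM from 9 and 3 reads.

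The E2F genes of this role were also unequal. The activator E2f1 had 3.22 TPM in replicate 1 and 2.07 in replicate 2. The repressor E2f8 had 1.11 and 2.22 TPM, so the order of these 2 was reversed between the libraries. The repressor E2f7 was near the limit of detection at 0.03 and 0.12 TPM, from 7 and 23 reads.

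In S phase, Tk1 was the most abundant gene in both libraries. Its mean was the highest of all 38 genes, just above that of Cdk4, but in replicate 2 both Cdk4 and Ccnd1 stood above it. The fixed-length level of Tk1 was 52.9 and 34.3, against 21.7 and 25.2 for Cdk4. On that scale only Ccnd1 stood above Tk1 in replicate 2. Tk1 encodes the cytosolic thymidine kinase of the salvage pathway and lies at chromosome 11, 117815526 to 117826092, on the minus strand. It had 58.5 TPM in replicate 1 and 39.1 in replicate 2 (48.8 ± 13.7, SD, n = 2), from 3227 and 2125 reads, which placed its mean at the 91.2 percentile of protein-coding genes. Pcna, the sliding clamp of DNA polymerases and also a DNA repair factor, followed with 18.9 and 17.8 TPM.

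The other genes of nucleotide supply were lower. Tyms, which makes thymidylate de novo, had 8.05 and 8.60 TPM, but only 2.50 and 2.92 on the fixed-length scale. The ribonucleotide reductase subunits were present at unequal levels, with the large subunit Rrm1 at 1.67 and 1.97 TPM and the small subunit Rrm2 at 0.67 and 0.69 TPM. Rrm1 was 2.49 and 2.86 times higher than Rrm2. Rrm2 was the S phase gene that did not reach 1 TPM.

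The MCM2-7 ring holds 1 copy of each of its 6 subunits, but the levels of their transcripts were not equal. Mcm7 had 8.17 TPM in replicate 1 and 10.7 in replicate 2. Mcm2 had 2.61 and 1.98 TPM, Mcm3 2.67 and 1.59, and Mcm6 1.43 and 1.79. Mcm5 had 1.48 and 1.55 TPM, and Mcm4 1.11 and 1.07. Mcm7 stood 5.52 and 6.71 times above the median of the other 5 subunits, which lay within 2.41-fold of each other in replicate 1 and 1.85-fold in replicate 2. With fixed lengths, Mcm7 stood 5.13 and 5.11 times above that median, so its excess was also present on that scale.

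Mitotic genes were low throughout. Cdk1, the kinase that starts mitosis, had 2.05 and 1.68 TPM, but these came from 54 and 43 reads, and its fixed-length level was 0.411 and 0.323. Birc5, the survivin subunit of the chromosomal passenger complex, had 0.78 and 0.70 TPM from 73 and 44 reads. Its fixed-length level was higher, at 1.97 and 1.17, since its longest coding sequence lies on the shorter of its transcripts. Birc5 replaced Cdk1 as the single mitotic gene at 1 TPM or more on that scale.

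The cyclins of this phase were scarce. Ccna2 had 0.40 and 0.56 TPM, Ccnb1 0.14 and 0.22, and Ccnb2 0.24 and 0.16. Each rested on 11 to 45 reads per library. Foxm1, the transcription factor of the mitotic programme, had 0.33 and 0.79 TPM, and Cdc20, an activator of the anaphase-promoting complex, 0.78 and 0.50. With fixed lengths the gap for Foxm1 was smaller, at 0.258 and 0.400. For Ccnb1 the order of the libraries was reversed, at 0.125 and 0.097, from 14 and 11 reads.

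The kinases Aurka, Aurkb and Plk1 lay between 0.19 and 0.57 TPM in both libraries. Top2a, which untangles sister chromosomes, had 0.19 and 0.26 TPM from 21 and 17 reads. Bub1, a spindle checkpoint kinase, had 5 and 8 reads. Mki67, the standard marker of dividing cells, had 22 and 12 reads, or 0.05 and 0.02 TPM, the lowest mean of the set. On the fixed-length scale, Pcna stood 412 and 718 times above Mki67, the latter ratio resting on those 12 reads.

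Transcript models were compared within genes from the deposited percentages, which give the share of a gene's TPM assigned to each listed transcript. Of the 21 genes with a mean of 1 TPM or more, 5 have a single listed transcript. Among the other 16, the most abundant transcript was the same in both libraries in 14 and carried a complete coding sequence in both in 13. The 3 exceptions were Cdk4, Tyms and Cdk1, where complete coding transcripts held under 50% of the gene's TPM in both libraries. Of the 17 genes with a mean under 1 TPM, 5 were led by a transcript without a complete coding sequence in at least 1 library.

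For Cdk4, complete coding transcripts held 13.7% of TPM in replicate 1 and 11.9% in replicate 2. The leading transcript was Cdk4-208, annotated as a target of nonsense-mediated decay, with 36.3% in replicate 1, and Cdk4-205, whose coding sequence is annotated as incomplete, with 35.6% in replicate 2. For Tyms, the complete coding share was 10.6% and 11.5%. Its leading transcript was the retained intron model Tyms-202 in replicate 1, with 55.6%, and the nonsense-mediated decay model Tyms-205 in replicate 2, with 49.7%. For Cdk1, the retained intron model Cdk1-203, of 378 bases, led in both libraries with 49.4% and 59.9%.

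Part of this lies in the unit. Counted in reads and not in TPM, complete coding transcripts held 29.0% and 24.0% of Cdk4, 34.3% and 33.8% of Tyms, and 68.9% and 70.3% of Cdk1. Cdk1 thus passed to a majority of complete coding reads, while Cdk4 and Tyms did not. The models that took the rest are shorter than the complete ones: Cdk4-208 has 924 bases against 2053 for Cdk4-201, and Tyms-202 has 816 against 3163 for Tyms-201.

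The other genes chosen for this comparison were dominated by coding models. Ccnd1 and Ccnd2 were assigned to a single transcript in both libraries. Ccnd3 has 21 listed transcripts, of which Ccnd3-205 held 94.8% and 92.0%. Cdkn1b-201 held 88.2% and 83.2% of Cdkn1b, the rest going to another coding model, and Cdkn2c was divided between Cdkn2c-202, with 58.4% and 52.0%, and Cdkn2c-201. Pcna-201 held 99.6% and 99.5% of Pcna, and Tk1-201 77.9% and 74.8% of Tk1, the rest going to retained intron models. Rb1-201 held 57.4% and 61.4% of TPM but, summed over complete coding models, 93.7% and 93.2% of the reads of Rb1.

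**Figure D3:**
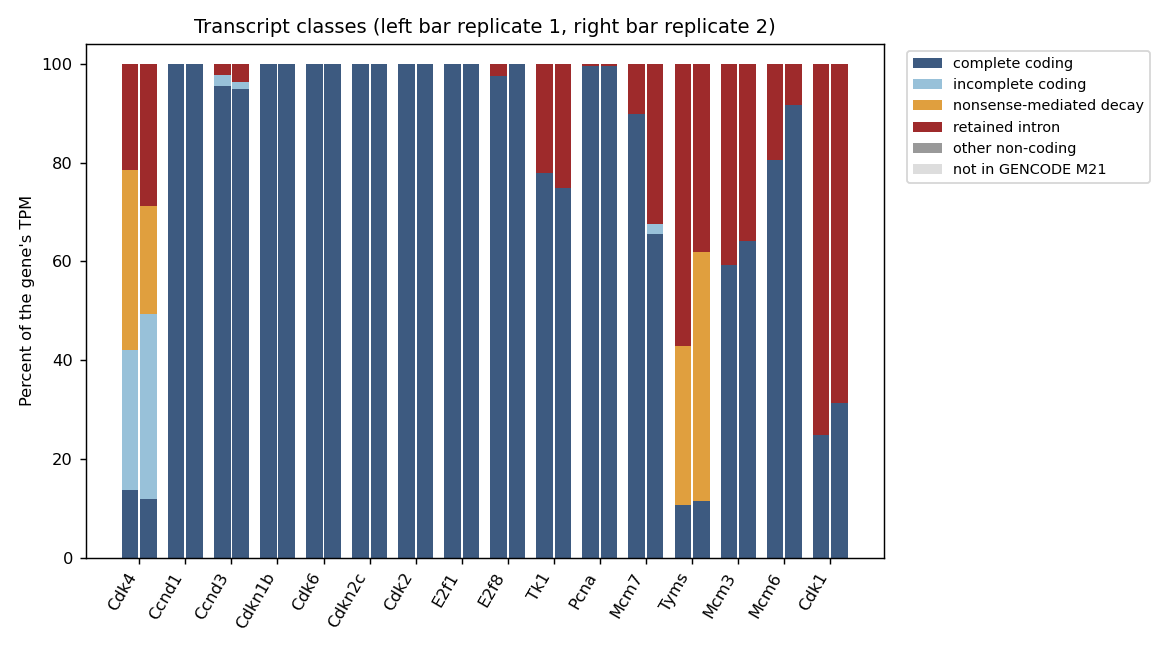
Share of each gene's TPM, in percent, by class of transcript, for the 16 genes at a mean of 1 TPM or more with at least 2 listed transcripts. The left bar of each pair is replicate 1 and the right bar replicate 2. Complete coding transcripts fall under 50% in both libraries for Cdk4, Tyms and Cdk1.

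Several of these genes lie beside abundant genes. Within 1000 bases, 12 of 38 had a neighbour with a mean of 1 TPM or more, and 10 overlapped it. Overlaps are of whole gene spans with their introns, so an overlap need not lie in mature RNA. In 15 of the 16 pairs the neighbour lay on the opposite strand. The strand setting of the counting is not given here, so reads in the overlaps may be uncertain. Tk1 overlaps Afmid by 169 bases, and Afmid had 121 and 101 TPM. Cdk4 overlaps Tspan31, at 214 and 185 TPM, by 641 bases, and E2f8 overlaps Gm2788, at 52.2 and 65.7 TPM, by 3639 bases. Cdc20 overlaps Elovl1, at 111 and 116 TPM, by 53 bases. Mcm7, the highest of the MCM genes, overlaps Cops6, at 99.2 and 93.7 TPM, by 64 bases and Ap4m1, at 8.59 and 13.5 TPM, by 421 bases. The longest overlap of spans was that of Rb1 with Rcbtb2, at 23.6 and 22.5 TPM, by 24171 bases, introns included. The complete coding transcript Rb1-201 has only 4656 bases. The part of these neighbours in the levels was not tested.

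The 2 libraries were then compared gene by gene with a two-sided exact binomial test on reads, scaled by TMM (the trimmed mean of M values, which assumes that most genes are alike) and adjusted by Benjamini-Hochberg over all genes with a combined count of 20 or more reads. It sets the 1 library against the other and accounts only for counting error, so it says nothing of any condition. Of 36 genes of the set that could be tested, 15 passed an adjusted p of 0.05. Of all 14533 genes tested, 57.7% passed, so the members were not called more often than genes at large. Read counts were not matched, and with at least 100 reads 13 of 25 members and 63.9% of all genes passed. Of the 36 tested, 6 were called higher in replicate 2, against 28.0% of all genes tested, and 9 of the 36 were called higher in replicate 1, against 29.7%. The median log2 ratio of replicate 2 over replicate 1 was -0.08 over the members and -0.00 over all genes tested. Only E2f7 and Aurkb were both called and at least 2-fold apart, against 7.78% of all genes.

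In G1 control, the D cyclins did not move together. Ccnd1 was higher in replicate 2 by 0.51 on the log2 scale (95% counting interval 0.46 to 0.56), with an adjusted p of 8.67e-90 in the exact test. Ccnd3 was lower there, with a log2 ratio of -0.23, and so was Cdkn1b, with -0.31. Ccnd2, Cdk4, Cdk6, Cdkn2c and Rb1 did not pass, with log2 ratios between -0.11 and 0.12.

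In the G1/S switch, E2f1 differed in the opposite direction to E2f7 and E2f8. E2f1 was lower in replicate 2, with a log2 ratio of -0.77 (-1.0 to -0.54). E2f8 was higher by 0.87 (0.61 to 1.13), and E2f7 by 1.5 (0.30 to 3.03), from 7 and 23 reads. Cdk2 was higher by 0.28. Outside this role, E2f4 was called higher by 0.35 and E2f6 lower, with a log2 ratio of -0.20. E2f2, E2f3 and E2f5 were not called. Gm2788, the abundant gene that E2f8 overlaps, also had more reads in replicate 2, with 2208 against 1699, and the part of this overlap in the E2f8 difference was not tested.

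In S phase, 4 genes were lower in replicate 2 and 1 was higher. Tk1 had a log2 ratio of -0.75 (-0.83 to -0.68), with an adjusted p of 1.03e-78 in the exact test, and Pcna one of -0.21. Within the MCM ring, Mcm3 was lower by a log2 ratio of -0.77 and Mcm2 by -0.53, while Mcm6 was higher by 0.39. Mcm4, Mcm5 and Mcm7 did not pass, with log2 ratios of -0.19, -0.07 and -0.07. The ratio for Mcm7 is near 0 in reads, although its deposited TPM differed, because its reads were assigned to shorter transcripts in replicate 2 (effective length 2574 and 2068 bases).

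In G2 and mitosis, Birc5 was lower in replicate 2 with a log2 ratio of -0.88 (-1.46 to -0.32) and Cdc20 with -0.75, while Aurkb was higher by 1.01 (0.20 to 1.92). The other 9 tested genes did not pass. Their intervals were wide: that of Mki67 ran from -2.17 to 0.05 and that of Plk1 from -0.07 to 1.65, so at this depth even a 2-fold difference need not pass. Ccne2 and Bub1 were under 20 reads and were not tested.

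**Figure D4:**
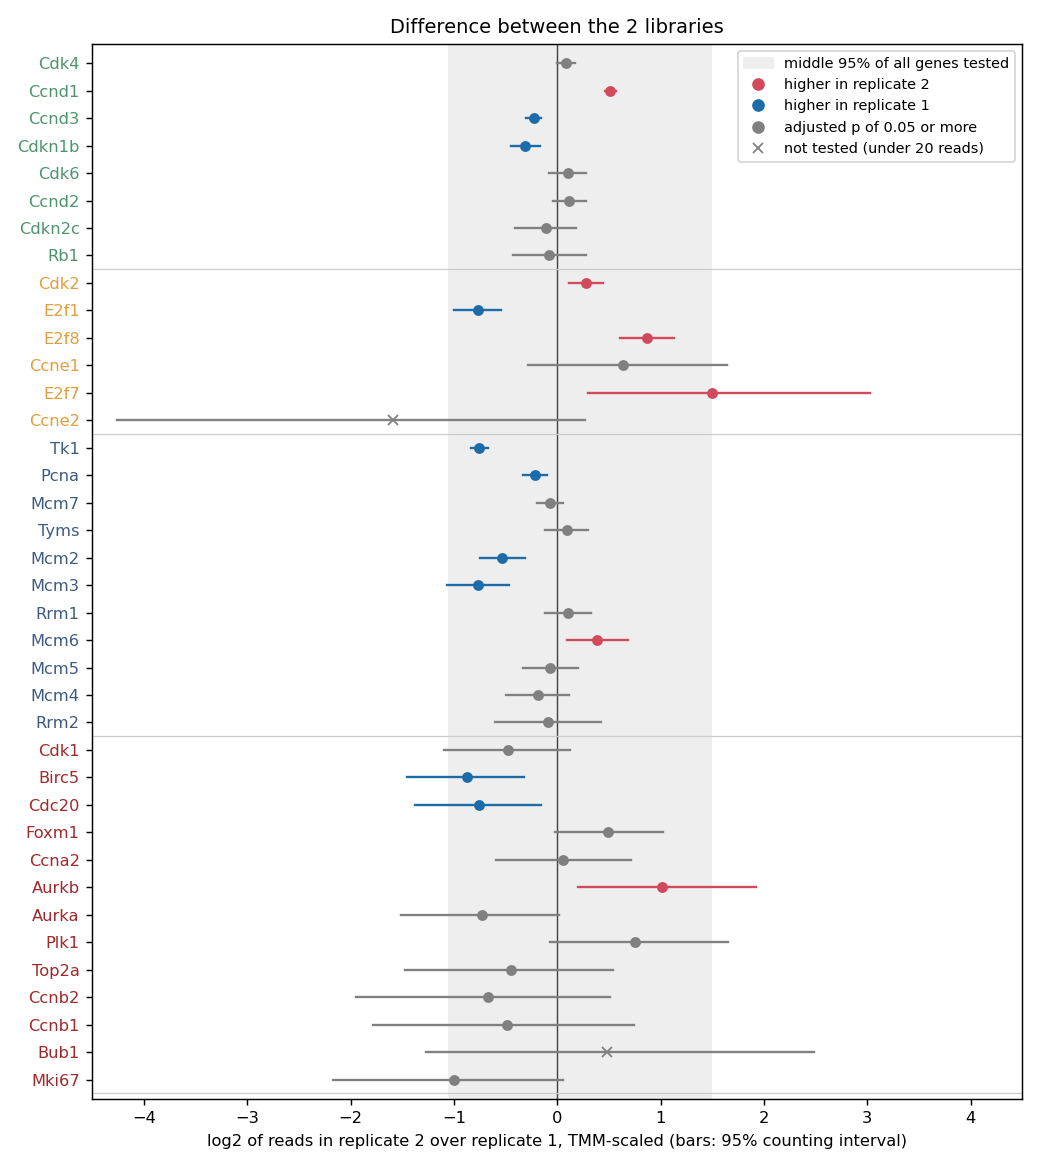
Log2 of the ratio of reads in replicate 2 over replicate 1 for each gene after TMM scaling, with 95% counting intervals. Red genes are higher in replicate 2 and blue genes in replicate 1 at an adjusted p under 0.05, grey genes did not pass, and crosses were not tested. The shaded band, from -1.05 to 1.48, holds the middle 95% of all genes tested, and Ccne2, which was not tested, and E2f7 are the points outside it.

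The balance of calls between the 2 directions depended on the scaling, although no member was called in opposite directions under different scalings. With total reads of genes, 10 members were higher in replicate 2 and 7 in replicate 1, and with spike-in totals 13 and 5. Over all genes, the share of calls that were higher in replicate 2 went from 48.5% to 69.3% and 73.7%, and the median log2 ratio from -0.00 to 0.13 and 0.15. Calls of 11 members held in the same direction under all 4 scalings tried: Ccnd1, Cdk2, E2f7, E2f8, Mcm6 and Aurkb higher in replicate 2, and E2f1, Tk1, Mcm2, Mcm3 and Birc5 higher in replicate 1. Ccnd3 and Cdkn1b lost their calls with spike-in totals, and Pcna and Cdc20 with both total reads and spike-in totals. Ccnd2, Cdk4, Cdk6 and Foxm1 gained calls, higher in replicate 2, with both of these scalings, and Plk1, Rrm1 and Tyms with spike-in totals.

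The libraries also differed in markers of cell types. All 6 Kupffer cell markers were called higher in replicate 2, as were 28.0% of all genes tested, among them C1qa, at 39.6 and 65.8 TPM, and Clec4f, at 31.9 and 45.0 TPM. Of the 6 endothelial markers, 5 were called higher there, led in level by Clec4g and Oit3. Lymphocyte markers were low in both libraries, and 2 of 6 were called, both B cell genes higher in replicate 2: Cd79a, at 1.63 and 4.93 TPM, and Cd79b, at 1.20 and 3.30. The T cell gene Cd3g, not called, lay the other way at 0.70 and 0.31 TPM. Among the stellate markers, Dcn and Reln were called higher and Lrat lower in replicate 2. Of 5 bile duct markers, Spp1 and Sox9 were called lower there. Of 4 erythroid markers tested, Alas2 and Tfrc were called lower and Klf1 higher. All 6 hepatocyte markers were called, 5 of them higher in replicate 1, as were 29.7% of all genes tested, and Apoa1 higher in replicate 2. Their log2 ratios ran from -0.40 for Ttr to 0.04 for Apoa1. The part of cell makeup in the differences above was not tested.

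Further cell cycle genes were grouped in 10 lists of 113 genes, and 75 of these reached 1 TPM in both libraries. At the high end, all 13 cyclins and kinases of transcription were at 1 TPM or more, led by Cdk9, at 38.9 and 54.7 TPM, and Ccnl2, at 28.4 and 53.0, in the reverse order with fixed lengths. So were 11 of 13 genes of the anaphase-promoting complex, the ubiquitin ligase that ends mitosis, with Anapc11 at 49.8 and 49.1 TPM and Anapc2 at 38.3 and 44.8. On the fixed-length scale Anapc11 had 14.3 and 13.9, and Anapc5 led, at 33.2 by mean. At the low end was the list of 23 spindle, kinetochore and cytokinesis genes, in which 2 reached 1 TPM. They were Ccnf, a cyclin gene placed in that list, at 7.23 and 6.20, and Cenpa, the centromeric histone, at 3.88 and 4.92. In that list 10 genes were below 0.1 TPM in both libraries.

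The replication lists lay between these ends. Among 18 replication fork genes, 14 reached 1 TPM, led by the DNA polymerase delta subunit Pold2, at 49.6 and 69.5 TPM, and the clamp loader subunit Rfc2, at 15.4 and 14.3. With fixed lengths Pold2 still led but was lower, at 25.4 and 27.0. In reads Pold2 was not called different, with a log2 ratio of -0.04. Among 17 genes of origin licensing and firing, 12 reached 1 TPM, led by Mcm10, at 10 and 18.7 TPM, and Orc3, at 5.66 and 9.71. With fixed lengths, 8 of the 17 did, and Mcm10 was lower, at 2.63 and 5.29, below Gins4, at 5.55 and 4.69, by mean. Of 6 further genes of nucleotide supply, 5 reached 1 TPM, led by the mitochondrial thymidine kinase Tk2, at 10.4 and 12.2, and the nucleotide hydrolase Samhd1, at 6.33 and 10.3. With fixed lengths Dut, at 10.1 and 8.80, stood above Samhd1 by mean.

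Genes that restrain the cycle were present as well, in lists that also hold genes of other function. A list of 12 genes holds pocket proteins, their E2F partners, the MuvB core and Mybl2, which encodes B-Myb of the mitotic programme. Of these 12, 10 reached 1 TPM, led by E2f4, at 34.1 and 47.7 TPM, and Lin37, at 15.7 and 19.2. Mybl2 did not, at 0.24 and 0.26 TPM. E2f4 stood far above E2f1. Of 5 further inhibitors of cyclin-dependent kinases, 3 reached 1 TPM: Cdkn1a, which encodes p21, at 8.00 and 6.01, Cdkn2d at 4.09 and 3.52, and Cdkn1c at 3.0 and 1.55. Of the other E2F genes, E2f6, at 8.01 and 7.65 TPM, and E2f3, at 2.28 and 2.11, did so. Ccni, at 59.0 and 48.5 TPM, and Ccng2, at 9.87 and 7.94, led the 3 cyclins of the G and I type. With fixed lengths Ccng2 stood below Ccng1, with means of 2.77 and 4.94.

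**Figure D5:**
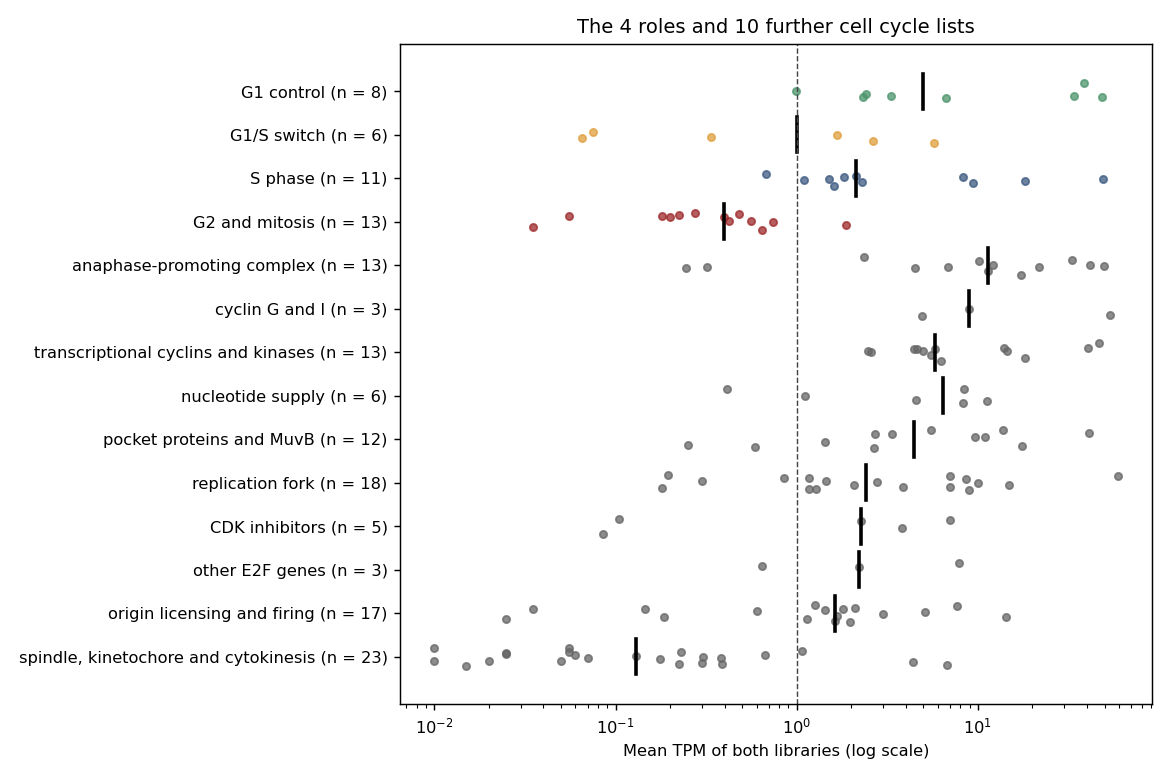
Mean TPM of both libraries on a log axis for each gene of the 4 roles (coloured) and the 10 further lists (grey), with the number of genes in brackets and the list median as a black bar. The lists that sit lowest are G2 and mitosis, with 1 of 13 genes at 1 TPM or more in both libraries, and spindle, kinetochore and cytokinesis, with 2 of 23.

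Of the 113 genes, 99 were tested between the libraries and 45 passed, 22 higher in replicate 2 and 23 in replicate 1, with a median log2 ratio of 0.00. Over all genes tested, 57.7% passed, 28.0% higher in replicate 2 and 29.7% in replicate 1. These genes too were called less often than genes at large, but a call also depends on the number of reads, which was not matched. Directions here are those of TMM scaling, and the share of calls higher in replicate 2 depends on it as given above. Transcriptional cyclins and kinases had 8 genes called higher in replicate 2 and 0 lower, out of 13 tested. All 3 inhibitors tested, Cdkn1a, Cdkn2d and Cdkn1c, were called lower in replicate 2, as were all 3 cyclins of the G and I type. Origin genes had 3 higher and 4 lower of 15 tested, and replication fork genes 2 and 3 of 17. The anaphase-promoting complex had 4 and 2 of 13, pocket proteins and MuvB 3 and 2 of 12, nucleotide supply 1 and 2 of 6, and spindle genes 1 and 3 of 14. Genes called and at least 2-fold apart were Cdkn1c, with a log2 ratio of -1.09, the licensing inhibitor Gmnn, with -1.13, and the separase gene Espl1, with 1.82 from 7 and 29 reads.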

How the data were processed

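Poly-A RNA-seq of 2 liver libraries was used as deposited by the authors: estimated counts of read pairs per gene and transcript, TPM scaled to all entries with the 96 spike-ins, the percent of a gene's TPM per transcript and the posterior SD of each count, a score in reads. Per the deposited notes, the authors used mm10 and GENCODE release 4; the columns are named as RSEM writes them, and no source used here gives aligner, tool or strand setting. Symbols, coordinates (GRCm38) and biotypes came from GENCODE release 21 by stable ID, which matched 42462 of 43346 genes. Deposited counts were rounded. Totals were 60770411 and 61688916 read pairs over all entries, of which spike-ins took 1.80% and 1.76%.

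With 1 library on each side, the quasi-likelihood test had no residual degrees of freedom. A two-sided exact binomial test was used on counts scaled by TMM (edgeR 4.0.16), with Benjamini-Hochberg adjustment over genes with a combined count of 20 or more and a threshold of 0.05. Log2 ratios have a prior count of 0.5. Intervals are Clopper-Pearson, 95%, and cover counting error only. The method was tested on simulated counts that held counting error only. That setting lacks the further spread between these libraries, so it cannot show how the calls hold here. Alternatives were total reads, spike-ins, DESeq2 1.42.0 size factors, other read minimums and thresholds, a larger prior, posterior mean TPM, TPM rescaled to nuclear protein-coding genes, each library alone and, added after seeing the data, fixed lengths.

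Members, lists and tests were chosen with earlier results of these data known. All 38 members are named, with the 2 highest genes of each list and those called and at least 2-fold apart. Isoforms are named for the D cyclins, Cdkn1b, Cdkn2c, Rb1, Pcna, Tk1 and Cdk4, and, among members with a mean of 1 TPM or more, where the leading transcript was not coding or differed between libraries. Promoters shown are those with the most matches in S phase and in G2 and mitosis, and 2 added. Files on mm9 were not used here.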

Additional observations from a re-analysis of the deposited data

How the results depend on the processing

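Over the alternatives tried, 63 values stayed within the spread between replicates, or within 1.5 times for counts, and 19 moved further. Some of the 63 were bound to stay. A level, share or ratio of 1 library always lies within the spread around the mean of the 2. Shares and ratios within a library cannot change when its TPM is rescaled. The 63 are therefore no measure of stability. No call on the 38 members was reversed under any of the 4 scalings. Members called higher in replicate 2 numbered 10 when scaled by total reads and 13 by spike-ins, against 6, and members called higher in replicate 1 numbered 5 with spike-ins, against 9. The median log2 ratio of the members, -0.08 by TMM, became 0.047 and 0.076 with those 2 scalings. Members below 0.1 TPM in both libraries numbered 5 with fixed lengths and 1 with posterior mean TPM, against 3, and 0 were below 0.05 TPM. With TPM rescaled to nuclear protein-coding genes, the medians became 6.04 for G1 control, 2.77 for S phase and 0.387 for G2 and mitosis, and the sum of the 38 genes 301. With posterior mean TPM the median of G2 and mitosis became 0.485 and the sum 254.6. With fixed lengths the median of G1 control became 3.44 and the sum 202. In each library alone, 21 or 22 members reached 1 TPM. Depth limits the mitotic genes and the E-type cyclins, most of which rest on fewer than 60 reads per library. No paired analysis was possible because the 2 libraries form 1 group.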
